A study of Mus musculus with 6 samples.

Results

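Knockout livers from mice that drank 5% serine were compared with knockout livers from mice on plain water, which took 4 of the 6 libraries of the series (2 on serine and 2 on water). The members were chosen by the labels alone, and the comparison was described across the 11134 annotated genes with a mean of at least 1 FPKM (fragments scaled for gene length and for the size of the library) over the 6 libraries. All 4 libraries came from 12-week-old male mice of the genotype labelled GapAlb KO, a hepatocyte-specific deletion of Gapdh, that went 16 hours without food but could drink. The other 2 libraries came from fasted males of the same age with the genotype labelled Gapfl on plain water; they are called controls, and they served here for the estimate of spread and for side by side values. Each library was a pool of liver RNA from 2 mice, so the SD and p-values below measure the spread between pools. No label names the promoter that drives the recombinase, and cells of the liver other than hepatocytes keep the gene in such a design. Floxed controls on serine are not among the libraries used, so the comparison does not separate an effect of serine in any fasted liver from one in the knockout.

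Gapdh oxidises glyceraldehyde 3-phosphate in glycolysis, forms NADH, and works in the reverse direction when the fasted liver makes glucose from lactate and amino acids. Serine is made from 3-phosphoglycerate, an intermediate on the far side of that step, and the liver can turn dietary serine into pyruvate with serine dehydratase. It also feeds the glycine and folate one-carbon pathways, the synthesis of cysteine, and the synthesis of sphingolipids and phospholipids.

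Gapdh (chr6:125138678-125143430, GRCm39, minus strand) stood at 23.75 and 17.00 FPKM in the knockout libraries on water and at 20 and 23.52 FPKM on serine, against 1091.44 and 1390.84 FPKM in the controls. The labels and the gene's level went together in all 6 libraries, and the serine difference in Gapdh was 0.11 on the log2(FPKM + 0.5) scale (SE 0.21). The implied depth was 17.3 M to 19.2 M fragments per library. On the first principal component, which held 43.6% of the variance, knockout water replicate 1 (25.7) stood with serine replicate 2 (33.7), and water replicate 2 (8.69) with serine replicate 1 (6.75). The share of FPKM from mitochondrial transcripts lay crosswise as well, at 9.7% and 12.6% on water and 12% and 8.89% on serine. Red blood cell markers summed to 735.92 and 1605.24 FPKM on water and to 1421.3 and 1361.75 on serine. The part of these differences between libraries in the results below was not tested.

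No gene passed an adjusted p of 0.05 in limma (Benjamini-Hochberg over all genes tested), which is 0 of 11134 genes or 0%, and the smallest adjusted p was 0.1995. Before adjustment, 578 genes (5.19%) were higher on serine and 227 (2.04%) lower at a p under 0.05. If no gene differed, 557 would be expected over both directions together. An exact permutation test of 2 libraries against 2 cannot give a two-sided p under 0.333. Both serine libraries lay above both water libraries at 2996 genes (26.9%) and below both at 1210 (10.9%). That excess of higher genes depended on scaling. After division of each library by its median ratio to the mean library, the counts were 1929 (17.3%) higher and 1964 (17.6%) lower, and the median log2 difference over all genes went from 0.08 to 0.001. Everything below is therefore a description of levels that no adjusted test supports, read against these background shares. Genes picked for a small p or a large difference tend to have water libraries that lie apart partly by chance. Where their serine libraries stand against the controls is therefore given as levels only.

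**Figure D1:**
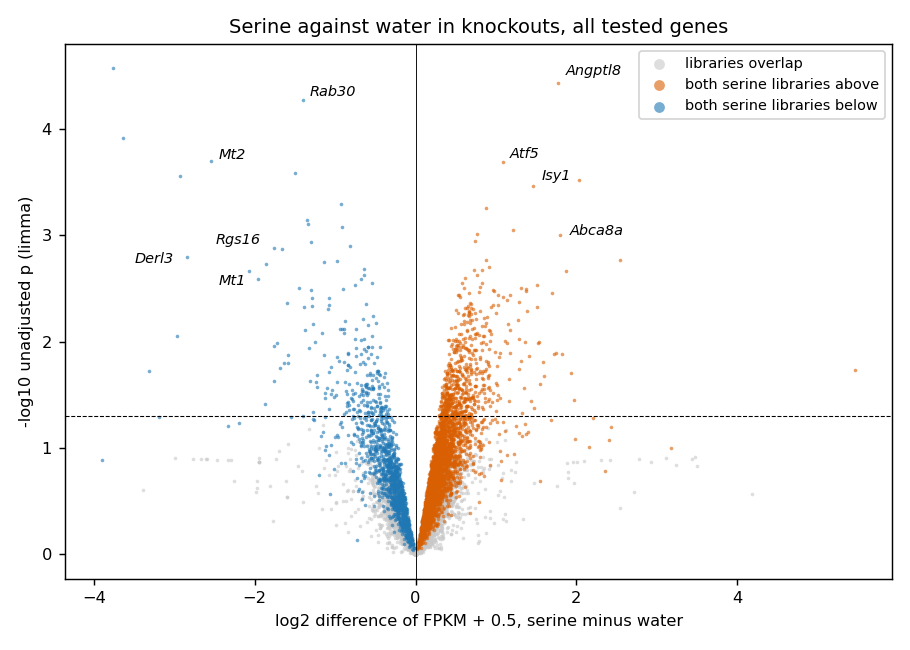
Log2 difference of FPKM + 0.5 between serine and water in knockouts (horizontal) and the negative log10 of the unadjusted limma p (vertical), 1 point per gene tested, coloured by whether the 2 serine libraries lay above or below both water libraries. The dashed line marks a p of 0.05; Angptl8 and Rab30 stand highest among the labelled genes, and no gene passed after adjustment.

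The genes with the smallest p and higher levels on serine were led by Angptl8, a secreted protein that takes part in the inhibition of lipoprotein lipase and is known to be induced by feeding. Angptl8 (chr9:21746806-21748643, plus strand) stood at 10 and 8.65 FPKM on water and at 38.01 and 28.64 on serine, with 21.52 and 20.29 in the controls. The ratio of the mean FPKM was 3.57, and the log2 difference was 1.77 (95% interval 1.34 to 2.20; limma adjusted p = 0.1995). Neither group overlapped the other, and the controls lay between them. Its gene body lies inside Dock6 on the opposite strand, which averaged 4.53 FPKM, and whether counting used strand is not stated. The 250 bases before its annotated start are shown because the level of this gene differed most clearly among the higher ones and because amino acid shortage is known to act through the 8-base amino acid response element TTGCATCA. They are from RefSeq on GRCm38.p6 (chr9:21835260-21835509, plus strand), a build that differs from that of the expression table, and the capitals mark a match of that motif on the opposite strand, 130 to 123 bases before the start.
Angptl8: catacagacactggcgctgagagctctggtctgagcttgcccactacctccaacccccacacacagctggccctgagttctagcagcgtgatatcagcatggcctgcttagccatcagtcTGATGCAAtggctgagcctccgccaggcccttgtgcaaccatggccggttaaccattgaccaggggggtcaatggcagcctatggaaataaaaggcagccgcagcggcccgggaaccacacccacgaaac
Of 32851 promoters of the same length, 0.791% hold this motif on either strand. The motif was chosen after the values were seen, and a match is a match of letters only.

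Atf5, a transcription factor of the integrated stress response that is linked to mitochondrial protein quality, stood at 221.97 and 256.31 FPKM on water and at 541.31 and 476.45 on serine. The controls were at 507.51 and 442.34 FPKM, of which the first lay inside the range of the serine libraries and the second just below it. Its log2 difference was 1.09 (SE 0.15, limma adjusted p = 0.374), and it overlaps Nup62 (mean 5.59 FPKM) on the opposite strand. Sdr9c7, of the short-chain dehydrogenase family, was at 6.42 and 7.06 FPKM on water, 13.29 and 12.40 on serine and 27.22 and 29.14 in controls. Both serine values lay between the 2 other groups. The splicing factor gene Isy1 was at 2.53 and 3.55 FPKM on water and at 8.27 and 10.12 on serine, above the controls at 4.35 and 4.83. Ugp2, which makes the UDP-glucose used for glycogen, was at 74.58 and 89.11 on water and at 140.7 and 129.8 on serine. For both genes the serine libraries lay above every other library of the series. Eps8l2, Abca8a, the histone gene H2bc4, the TFIID subunit Taf13 and the ISG15-conjugating enzyme Ube2l6 were also among the higher genes by smallest p, as was Amt, which is described with its pathway. For the 5 genes other than Amt, the log2 differences ran from 0.74 for H2bc4, which has near-identical relatives, to 1.80 for Abca8a, and the limma adjusted p was 0.620 or 0.639.

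**Figure D2:**
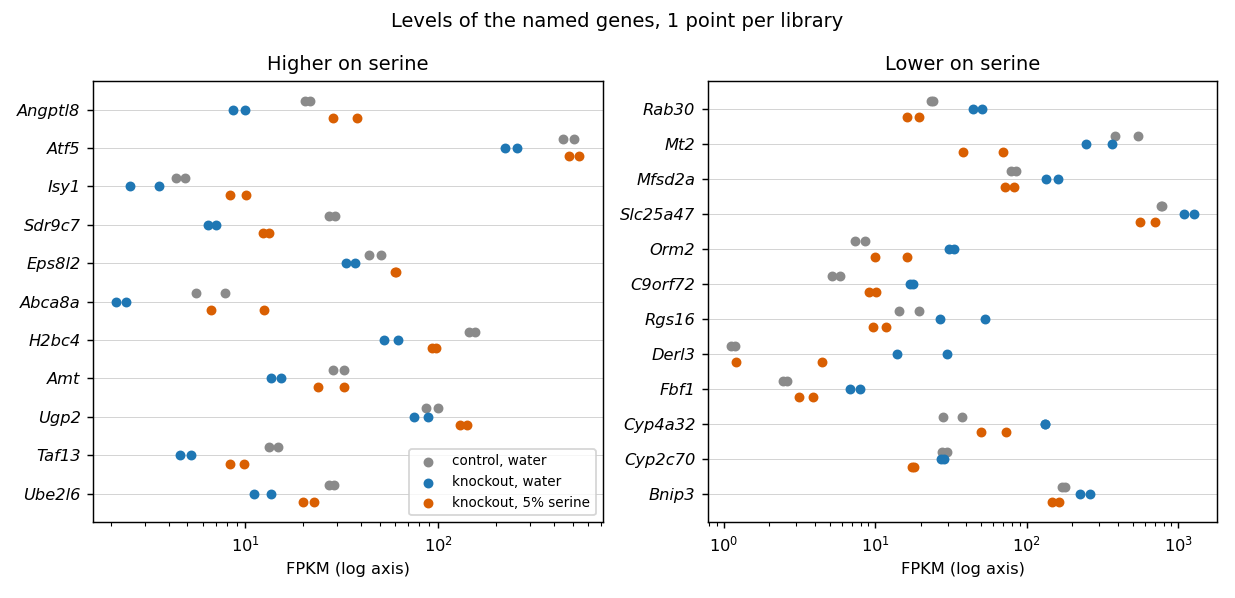
FPKM on a log axis in each of the 6 libraries for 11 higher (left) and 12 lower (right) genes with the smallest p in serine against water. Each point is 1 library. In every row the 2 orange points (serine) lie on one side of the 2 blue points (water), which was a condition for being named.

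On the lower side Rab30 had the smallest p. It encodes a small GTPase of the Golgi. Rab30 (chr7:92390811-92493743, plus strand) was at 50.92 and 44.45 FPKM on water and at 19.37 and 16.17 on serine, with 24.06 and 23.38 in the controls. The log2 difference was -1.40 (95% interval -1.76 to -1.04; limma adjusted p = 0.1995), and both serine values lay below the controls. Slc25a47, a mitochondrial carrier of the liver, was at 1091 and 1277 FPKM on water and at 697.9 and 562.4 on serine. Mfsd2a, the transporter of lysophosphatidylcholine, was at 135.0 and 161.3 on water and at 82.82 and 71.88 on serine. Bnip3, a receptor for the removal of mitochondria, was at 261.2 and 226.0 on water and at 147.0 and 164.3 on serine. At these 3 genes the serine libraries stood at the level of the controls or below it, since Slc25a47 was at 775.8 and 766.5 FPKM in controls, Mfsd2a at 84.48 and 79.10, and Bnip3 at 178.8 and 169.7. Rgs16, a regulator of G protein signalling, was at 26.65 and 52.90 FPKM on water and at 11.76 and 9.72 on serine, and its log2 difference was -1.77 (SE 0.33). Cyp2c70, which makes muricholic acids in mice, was at 27.15 and 28.62 on water and at 17.43 and 18.07 on serine. There the water libraries had the level of the controls (27.50 and 29.99 FPKM), so the serine libraries stood apart from both. C9orf72 was at 17.64 and 17.04 FPKM on water and at 10.16 and 9.13 on serine. The ciliary gene Fbf1 was at 6.83 and 7.98 on water and at 3.16 and 3.87 on serine. The serine libraries of both lay between water and controls.

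The metallothionein genes Mt1 and Mt2, whose small proteins bind zinc and copper and which metals and glucocorticoids are known to induce, had the lowest ratios of serine to water (0.175 for Mt2 and 0.284 for Mt1) among the 835 genes that averaged at least 100 FPKM on water. Mt2 (chr8:94899292-94900196, plus strand) was at 246.84 and 367.92 FPKM on water and at 38.11 and 69.22 on serine, against 382.54 and 546.23 in controls. Mt1 (chr8:94905710-94906955, plus strand) was at 816.21 and 611.97 on water and at 113.07 and 292.36 on serine, against 667.49 and 681.85 in controls. At both genes the serine libraries lay below every other library, while the water libraries of Mt1 lay on both sides of the controls and those of Mt2 below them. The log2 differences were -2.54 for Mt2 (SE 0.34, limma adjusted p = 0.374) and -1.96 for Mt1 (SE 0.41, limma adjusted p = 0.639). Both genes are short and closely related, and reads they share could be split by the counting. Their promoters are shown because the pair stood lower together. The capitals mark every match of TGCNCNC, the core of the metal response element, on either strand in the 250 bases before the start (RefSeq, GRCm38.p6, chr8:94178839-94179088 for Mt1 and chr8:94172368-94172617 for Mt2, both on the plus strand).
Mt1: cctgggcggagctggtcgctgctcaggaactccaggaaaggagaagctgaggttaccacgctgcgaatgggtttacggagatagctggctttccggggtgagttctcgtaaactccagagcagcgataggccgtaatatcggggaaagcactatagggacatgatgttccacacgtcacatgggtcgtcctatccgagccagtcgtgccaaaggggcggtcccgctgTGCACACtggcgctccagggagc
Mt2: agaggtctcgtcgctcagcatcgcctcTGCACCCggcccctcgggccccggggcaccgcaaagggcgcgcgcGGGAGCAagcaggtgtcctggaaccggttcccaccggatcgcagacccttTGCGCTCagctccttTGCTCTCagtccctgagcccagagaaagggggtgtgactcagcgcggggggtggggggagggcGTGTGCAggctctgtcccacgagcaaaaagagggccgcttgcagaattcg
The Mt1 window holds 1 match and the Mt2 window 5, of which 3 are on the same strand and 2 on the opposite. Matches outside these windows, such as past the RefSeq start, were not counted. That start can differ from the start in use, so the count for Mt1 does not describe all metal response elements of the gene. Of 32851 promoters, 44.4% hold at least 1 match and 0.344% hold 5 or more, so a single match is common. This motif too was chosen after the values were seen.

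Mt1 and Mt2 also head the list of glucocorticoid response genes, of which 19 were tested. In that list 9 members (47.4%, beside 10.9% of all genes) were lower on serine with no overlap and 0 higher. The same 9 against 0 was counted after median-of-ratios scaling, where 17.6% of all genes were lower. At an unadjusted p under 0.05 in limma 6 were lower and 0 higher, beside 2.04% and 5.19% of all genes. The list's median log2 difference was -0.42 beside 0.08 over all genes. Fkbp5, a co-chaperone of the glucocorticoid receptor, was at 41.28 and 30.36 FPKM on water and at 16.02 and 17.01 on serine, with 63.41 and 40.68 in controls. Cdkn1a, an inhibitor of cyclin-dependent kinases, was at 36.29 and 38.38 on water and at 24.01 and 24.24 on serine. Tdo2, the first enzyme of tryptophan breakdown, was at 2628 and 1998 on water and at 1315 and 1728 on serine. The serine libraries of Fkbp5 and Cdkn1a lay below all others, while those of Tdo2 spanned the level of the controls (1373 and 1264 FPKM). Other standard members overlapped. Tsc22d3, which encodes the glucocorticoid-induced leucine zipper, was at 32.10 and 34.27 on water and at 46.46 and 33.39 on serine. The median rested on single libraries, since it was -0.08 without water replicate 1 and -0.13 without serine replicate 1.

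**Figure D3:**
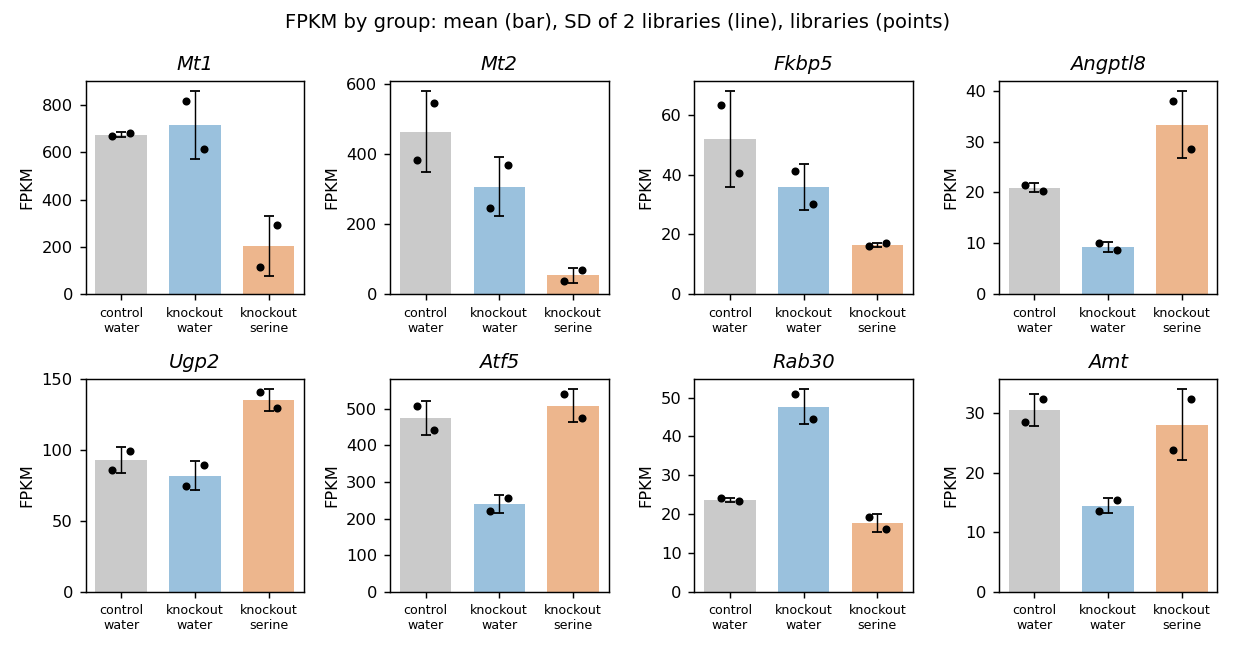
FPKM of 8 genes by group on linear axes from 0; bars are means, lines the SD of 2 libraries, and points the libraries. Mt1, Mt2 and Fkbp5 are lowest on serine, while Angptl8 and Ugp2 are highest there; Atf5 and Amt are lowest in knockouts on water, and Rab30 is highest there.

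Endoplasmic reticulum chaperones fold secreted proteins, and their genes are known to be raised together when unfolded protein builds up. Of the 24 members tested, 12 were lower on serine with no overlap and 2 higher, and 13 and 1 after median-of-ratios scaling, where 10.9% and 17.6% of all genes were lower. At an unadjusted limma p under 0.05, 7 were lower and 0 higher, beside 2.04% and 5.19% of all genes. The list's median log2 difference was -0.50. Derl3, which helps to draw misfolded proteins out of the reticulum (chr10:75729247-75731775, plus strand), was at 29.88 and 13.85 FPKM on water and at 1.21 and 4.45 on serine. The controls were at 1.12 and 1.19, next to serine replicate 1. Its log2 difference was -2.84 (95% interval -4.16 to -1.53; limma adjusted p = 0.639). Hspa5, the main chaperone of the reticulum also called BiP, was at 625.9 and 442.1 FPKM on water and at 170.2 and 361.8 on serine. Its partner Sdf2l1 was at 32.55 and 24.01 on water and at 4.23 and 16.01 on serine. Herpud1, of the degradation machinery, was at 383.4 and 218.8 on water and at 127.5 and 129.6 on serine, and the disulfide isomerase gene Pdia4 at 159.8 and 102.8 on water and 56.73 and 77.87 on serine. For these 4 genes no serine library reached a water library, but the 2 libraries of a group lay far apart except the serine pair of Herpud1. Water replicate 1 was the highest of the 4 knockout libraries at 19 of the 24 members, and serine replicate 1 was the lowest at 19. At Manf the values were 286.5 and 173.9 on water and 78.53 and 253.9 on serine, and at Calr 377.5 and 276.9 on water and 181.5 and 407.5 on serine. Both overlapped. Without serine replicate 1 the list's median was -0.24, without water replicate 1 it was -0.30, and without serine replicate 2 it was -0.85. The 2 non-overlapping members that stood higher were Canx and Derl2, each at a log2 difference of 0.17.

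The promoters of Derl3 and Hspa5 are shown because they hold the endoplasmic reticulum stress element, CCAAT and CCACG with 9 bases between, which the transcription factor ATF6 is known to use. Capitals mark both parts, which lie on the opposite strand in Derl3 (chr10:75893148-75893397) and on the same strand in Hspa5 (chr2:34771840-34772089; both windows RefSeq, GRCm38.p6, plus strand).
Derl3: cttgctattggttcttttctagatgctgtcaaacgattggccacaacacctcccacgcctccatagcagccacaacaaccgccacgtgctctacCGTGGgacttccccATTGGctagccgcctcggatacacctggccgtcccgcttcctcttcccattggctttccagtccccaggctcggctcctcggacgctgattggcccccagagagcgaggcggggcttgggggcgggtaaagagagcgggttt
Hspa5: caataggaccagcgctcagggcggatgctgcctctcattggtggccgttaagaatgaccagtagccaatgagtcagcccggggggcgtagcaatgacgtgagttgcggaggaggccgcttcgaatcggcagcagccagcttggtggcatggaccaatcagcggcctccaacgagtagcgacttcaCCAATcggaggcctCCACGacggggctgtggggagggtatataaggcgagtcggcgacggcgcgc
Of the 21 tested members with a promoter in the reference, 10 hold the element, whereas 0.113% of all 32851 promoters do. A member was counted if any of its promoters held the element, while the background counted each promoter. The list is of genes known to respond to the stress that this element serves. Its high share therefore follows from the choice of list and is no result of these data. The 10 are Calr, Canx, Creld2, Derl3, Dnajc3, Ero1b, Hsp90b1, Hspa5, Pdia6 and Syvn1. They include Derl3 and Hspa5, whose serine libraries were lower, Calr, whose libraries overlapped, and Canx, whose serine libraries were higher. The log2 differences of the rest (Creld2, Dnajc3, Ero1b, Hsp90b1, Pdia6 and Syvn1) were negative under every alternative setting of the fit. Whether the element had a part in these levels was not tested.

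Chaperones of the cytosol and of mitochondria stood the other way. Of 22 tested, 15 (68.2%, beside 26.9% of all genes) were higher on serine with no overlap and 1 lower. After median-of-ratios scaling 13 were higher and 1 lower, where 17.3% of all genes were higher. At an unadjusted limma p under 0.05, 9 were higher and 0 lower, beside 5.19% and 2.04% of all genes. The list's median log2 difference was 0.27 (0.18 after scaling). Hsp90aa1, the inducible cytosolic HSP90, was at 77.43 and 80.02 FPKM on water and at 109.5 and 117.4 on serine. Hsp90ab1, the constitutive form, was at 349.6 and 362.9 on water and at 499.2 and 467.9 on serine. Stip1, which links HSP70 to HSP90, was at 34.56 and 36.32 on water and at 48.65 and 52.42 on serine. The 2 libraries of each group lay close together at these 3 genes, and the serine libraries exceeded the controls as well. Dnaja1, an HSP40 co-chaperone, was at 77.29 and 85.85 on water and at 126.9 and 116.6 on serine; it overlaps Smu1 (mean 17.0 FPKM) on the opposite strand. Chordc1, another HSP90 partner, was at 16.17 and 10.37 on water and at 25.31 and 26.83 on serine, a log2 difference of 0.98 (SE 0.22). Hspd1, the mitochondrial HSP60, was at 258.0 and 255.3 on water and at 299.0 and 310.2 on serine, a log2 difference of 0.25 (SE 0.11). Dnajb4 was the 1 member that stood lower, at 22.29 and 18.97 on water and 18.48 and 14.22 on serine.

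**Figure D4:**
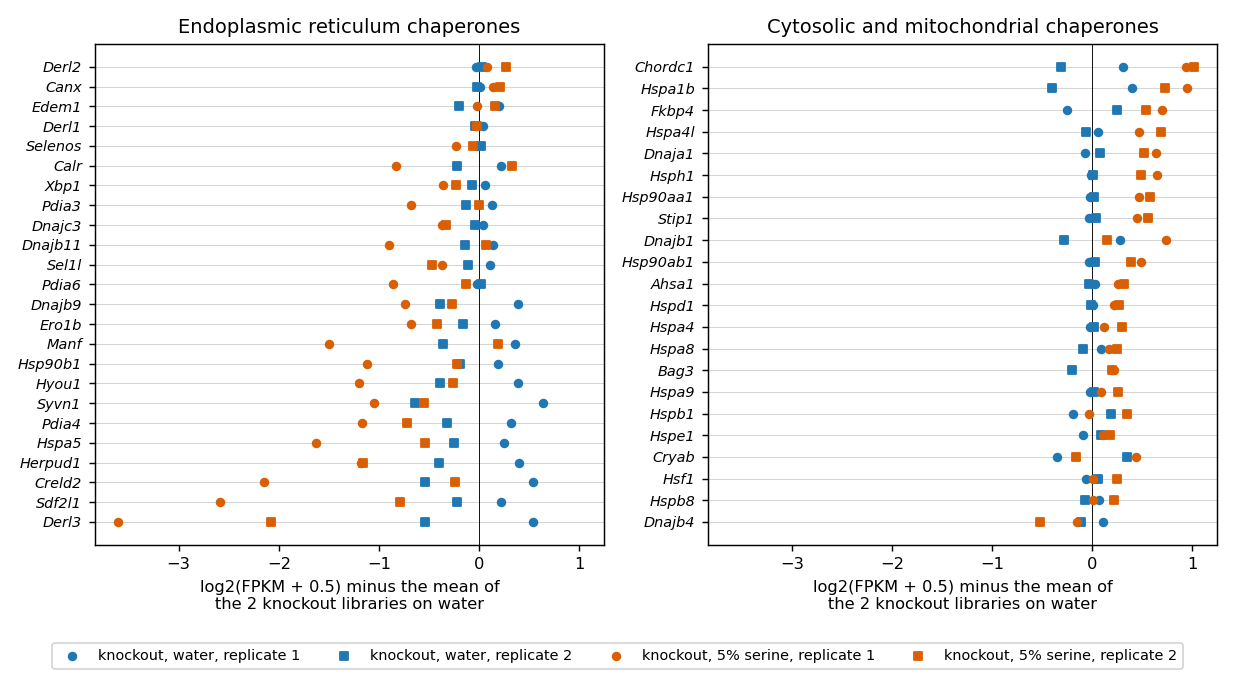
Each library's log2(FPKM + 0.5) minus the mean of the 2 knockout libraries on water, for the 24 endoplasmic reticulum chaperones (left) and the 22 cytosolic and mitochondrial chaperones (right); colours give the drink and shapes the replicate. On the left serine replicate 1 lies farthest from water at most members (Hspa5 170.2 FPKM against 361.8 in serine replicate 2), and on the right both serine libraries lie close together above water at Hsp90aa1 and Stip1.

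Genes of cholesterol synthesis and other genes that the sterol-sensing factor SREBP2 is known to drive stood higher. Of 25 tested, 11 (44%, beside 26.9% of all genes) were higher with no overlap and 0 lower. After median-of-ratios scaling 10 were higher and 1 lower, where 17.3% of all genes were higher. Beside 7110 of all 11134 genes, 23 of the 25 had a positive log2 difference. At an unadjusted limma p under 0.05, 8 were higher and 0 lower, beside 5.19% and 2.04% of all genes. The list's median log2 difference was 0.46. Idi1, which isomerises isopentenyl diphosphate (chr13:8935537-8942487, plus strand), was at 7.70 and 5.19 on water and at 21.29 and 12.69 on serine. Its log2 difference was 1.31 (95% interval 0.62 to 2.00; limma adjusted p = 0.639). Sqle, squalene epoxidase, was at 3.11 and 1.84 on water and at 7.35 and 4.81 on serine, and Pmvk, phosphomevalonate kinase, at 11.39 and 9.37 on water and 17.14 and 16.21 on serine. At each of these 3 genes the serine libraries lay above the controls too. Serine replicate 1 was the higher of the serine pair at 17 of the 25 members, and the list's median was 0.21 without it, 0.30 without water replicate 2 and 0.74 without serine replicate 2.

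Fatty acid synthesis and carbohydrate-response genes gave 11 higher and 2 lower of 24 with no overlap. These were 45.8% and 8.33%, beside 26.9% and 10.9% of all genes. After median-of-ratios scaling the counts were 7 and 2, beside 17.3% and 17.6% of all genes. The list's median log2 difference was 0.21, and it was 0.06 without serine replicate 1 and 0.44 without serine replicate 2. Acly, which makes cytosolic acetyl-CoA from citrate, was at 24.11 and 27.23 FPKM on water and at 36.51 and 45.38 on serine. Elovl6, a fatty acid elongase, was at 8.15 and 8.74 on water and at 13.31 and 12.75 on serine. Srebf1, which encodes SREBP1, was at 6.89 and 9.17 on water and at 12.66 and 10.33 on serine. The groups were apart at all 3 genes, and limma gave each an unadjusted p under 0.05. Fasn, fatty acid synthase, overlapped at 27.53 and 25.93 on water and 29.75 and 23.67 on serine, and Scd1 ranged from 158.4 to 484.4 on water and from 105.1 to 999.3 on serine, so that no direction could be read. Txnip, a sugar-responsive gene, stood the other way at 265.6 and 131.4 on water and 120.1 and 89.47 on serine; the non-coding Gm15441 (mean 28.0 FPKM) overlaps it on the opposite strand.

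Fatty acid oxidation genes, many of them targets of the fasting receptor PPARα, more often stood lower than higher. Of 46 tested, 12 (26.1%, beside 10.9% of all genes) were lower with no overlap and 3 higher (6.52%, beside 26.9%). After median-of-ratios scaling 16 were lower and 0 higher, beside 17.6% and 17.3% of all genes. At an unadjusted limma p under 0.05, 8 were lower and 0 higher, beside 2.04% and 5.19% of all genes. The median log2 difference was -0.09, however, and it turned positive without serine replicate 2 (0.09) and without water replicate 2 (0.002), and was -0.34 without serine replicate 1 and -0.26 without water replicate 1. Cyp4a32, a fatty acid omega-hydroxylase, was at 132.8 and 131.4 FPKM on water and at 72.50 and 49.53 on serine, with 37.58 and 27.84 in controls; reads shared with close Cyp4a relatives make it uncertain. Plin2, the lipid droplet coat, was at 1115 and 1434 on water and at 916.8 and 773.7 on serine. Both serine pairs lay between the water libraries and the controls, which had 715.5 and 737.1 FPKM of Plin2. Angptl4, another inhibitor of lipoprotein lipase, was at 134.4 and 131.8 on water and at 104.3 and 74.77 on serine, opposite in direction to Angptl8. Acadm and Cpt1a, of mitochondrial oxidation, overlapped. Acadm, the medium-chain dehydrogenase, was at 275.2 and 377.9 on water and 373.8 and 316.2 on serine, and Cpt1a, the gate to the mitochondrion, at 236.6 and 217.7 on water and 248.2 and 227.3 on serine.

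**Figure D5:**
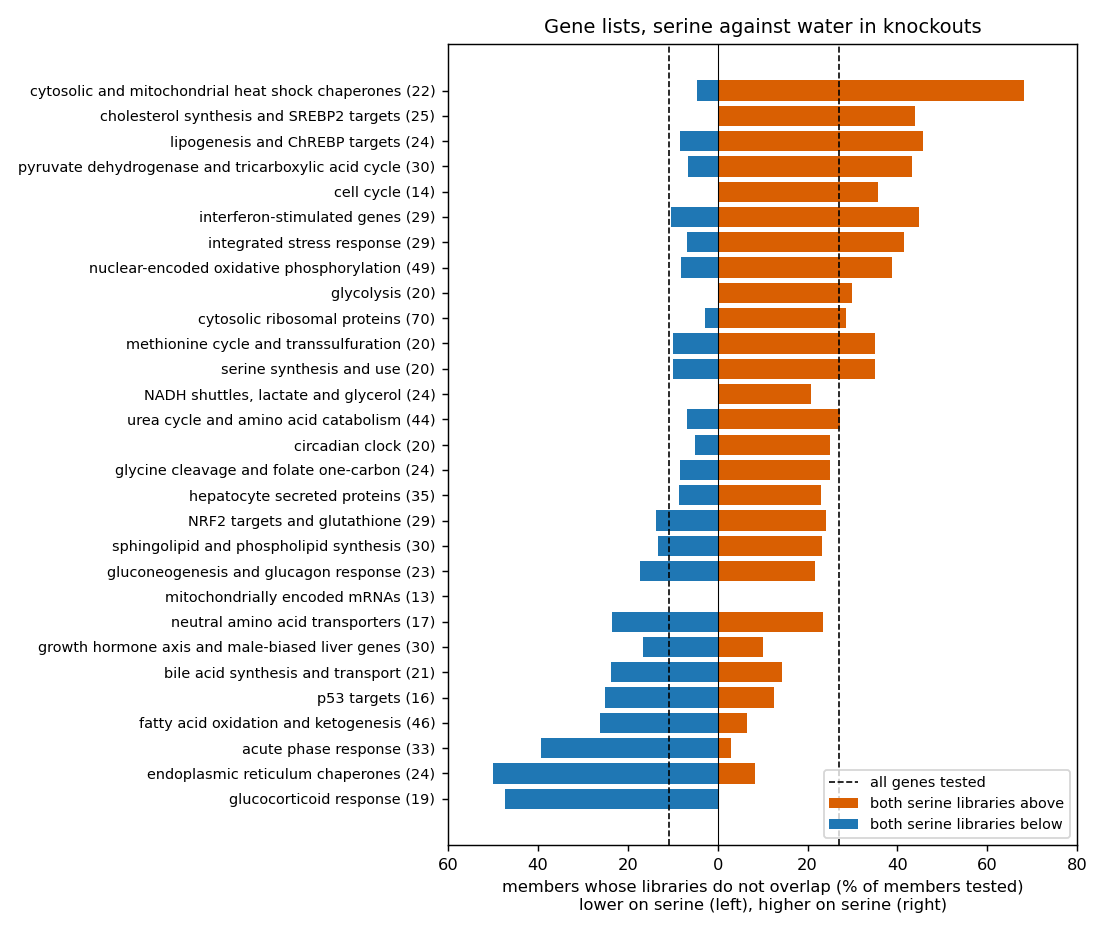
Share of the tested members of each pathway list drawn whose serine libraries lay above (right, orange) or below (left, blue) both water libraries, with the number of members tested in brackets. Cell type marker lists and the short list of female-biased liver genes (7 members tested) are not drawn. Dashed lines give the shares over all genes, 26.9% higher and 10.9% lower; cytosolic chaperones and cholesterol synthesis lie to the right, and glucocorticoid response, endoplasmic reticulum chaperones and acute phase genes to the left.

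Genes that make, move or use serine itself showed no common direction. Of 20 tested, 7 were higher and 2 lower with no overlap, and 4 and 4 after median-of-ratios scaling, near the background shares. The lowest relative to water was Sdsl, a relative of serine dehydratase (chr5:120596251-120610875, minus strand), at 59.14 and 56.55 FPKM on water and 33.05 and 39.39 on serine. Its log2 difference was -0.67 (95% interval -1.01 to -0.33; limma adjusted p = 0.639), and the serine libraries lay below the controls at 46.86 and 42.24. Sds, serine dehydratase itself, was at 412.5 and 354.7 on water and at 294.4 and 592.4 on serine. Serine replicate 1 was the lowest and serine replicate 2 the highest of the 6 libraries, so no direction could be given for Sds. Serinc3, of a family named serine incorporators, was at 125.1 and 117.7 on water and 82.12 and 90.54 on serine. Agxt, an aminotransferase that acts on glyoxylate and serine, was at 139.8 and 221.4 on water and at 254.1 and 259.1 on serine, close to the controls at 279.5 and 247.0. The genes of the synthesis route stood low throughout. Psat1 was at 1.73 and 1.36 FPKM on water and 1.80 and 2.72 on serine, and Psph at 1.13 and 2.34 on water and 2.63 and 2.59 on serine, while Phgdh, the first enzyme of the route, was at 0.07 FPKM or below in every library and was not tested. Shmt1 and Shmt2, which pass the side carbon of serine to folate, had log2 differences of 0.18 (SE 0.13) and 0.06 (SE 0.13), and Cbs, which joins serine to homocysteine, one of 0.11 (SE 0.16). The rest (Sptlc1, Srr, Sars, Sars2, Ptdss1, Ptdss2, Sptlc2, Serinc1, Serinc2, Glyctk and Grhpr) had log2 differences from -0.19 at Ptdss2 to 0.25 at Srr. Psph and Sds overlap expressed genes on the opposite strand, Cct6a (67.3 FPKM) and Plbd2 (27.1 FPKM).

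Downstream of serine, the glycine cleavage gene Amt had serine libraries above both water libraries, while Gldc and Gcsh of the same complex overlapped. Amt, which encodes the aminomethyltransferase (chr9:108174052-108179501, plus strand), was at 13.57 and 15.34 FPKM on water and at 23.81 and 32.29 on serine, with 28.57 and 32.37 in controls. Its log2 difference was 0.92 (SE 0.18, limma adjusted p = 0.639). Among the other subunits Gldc was at 56.69 and 63.69 on water and 75.07 and 58.63 on serine, and Gcsh was at 24.99 and 31.14 on water and 39.08 and 27.62 on serine. Over the glycine and folate list 6 of 24 were higher and 2 lower with no overlap, a share near that of all genes. The mitochondrial folate enzyme Mthfd2 was at 1.78 and 0.52 FPKM on water and at 2.34 and 2.14 on serine.

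The acute phase list, genes of the liver's response to inflammation and not only of secreted proteins, had 13 of 33 members lower with no overlap and 1 higher. The lower share was 39.4%, beside 10.9% of all genes. After median-of-ratios scaling the list had 17 lower and 1 higher, where 17.6% of all genes were lower. Its median log2 difference was -0.23 (-0.39 without serine replicate 1). Mt1 and Mt2 are also members of the list. Orm2, an orosomucoid gene with close relatives, was at 33.04 and 30.69 FPKM on water and at 9.94 and 16.11 on serine, with 8.53 and 7.39 in controls. Il1r1, the interleukin 1 receptor, was at 9.79 and 9.27 on water and at 5.50 and 5.43 on serine, with 10.90 and 8.94 in controls. The serine libraries of Orm2 lay between the controls and the water libraries, and those of Il1r1 lay below the controls. At all 3 fibrinogen genes both serine libraries lay below both water libraries, and Fgb was at 471.0 and 526.2 on water and 427.5 and 282.3 on serine, with 1123 and 1105 in controls. Saa1 was at 168.1 and 347.2 on water and at 51.49 and 162.5 on serine. Saa4 was the 1 member that stood higher, at 10.22 and 10.57 on water and 15.57 and 13.70 on serine.

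Lack of amino acids is known to switch on the integrated stress response. Of its 29 tested members, 12 (41.4%, beside 26.9% of all genes) were higher and 2 lower with no overlap. After median-of-ratios scaling, however, the response had 7 members higher and 5 lower, beside 17.3% and 17.6% of all genes. Atf4, its central factor, overlapped at 63.51 and 43.26 FPKM on water and 49.89 and 48.42 on serine. Beside Atf5, the stress protein gene Nupr1 was at 1.53 and 3.63 on water and 10.84 and 5.58 on serine, and Cth, which releases cysteine, at 431.6 and 347.9 on water and 488.1 and 755.5 on serine. Ppp1r15a, which ends the response by dephosphorylating eIF2α, stood the other way at 4.76 and 4.96 on water and 3.43 and 3.48 on serine. Asns, asparagine synthetase, overlapped at 8.75 and 4.12 on water and 6.73 and 15.08 on serine. No direction was common to the list's best-known members.

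Some of the largest differences were at thinly expressed or split genes. The glycogen-targeting gene Ppp1r3c was at 2.34 and 4.94 FPKM on water and at 18.67 and 6.76 on serine, with 32.70 and 33.15 in controls. Its serine libraries differed more from each other than the nearer of them did from water. Pagr1a was at 0.24 and 0.71 on water and at 1.39 and 13.22 on serine, and lies in Gm42742 (9.55 FPKM) on the same strand. Nutf2, a nuclear import factor, was at 1.65 and 0.93 on water and at 4.50 and 5.95 on serine. Rpph1, the RNA of ribonuclease P, is listed at 0 in both serine libraries and at 9.13 and 1.68 FPKM on water.

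The knockout itself was tested in the same fit as knockout on water against control on water, where 90 genes (0.808%) were higher and 45 (0.404%) lower at an adjusted p under 0.05. That comparison shares the water libraries with the serine comparison, so chance highs and lows in them enter both with opposite sign, and the values are only set side by side. Cpt1b, the muscle form of carnitine palmitoyltransferase, was at 5.64 and 4.11 FPKM in controls, 37.30 and 43.64 in knockouts on water and 29.94 and 29.52 on serine. Enc1 was at 3.63 and 3.65 in controls, 24 and 17.44 on water and 13.76 and 10.47 on serine. Ido2, a tryptophan-degrading enzyme, was at 20.03 and 20.63 in controls, 3.06 and 3.99 on water and 6.09 and 5.71 on serine. At all 3 the serine libraries stood between the other groups. Sult2a8, a liver sulfotransferase, was at 282.3 and 246.0 in controls, 88.07 and 80.84 on water and 158.6 and 107.6 on serine. Spata24 was at 3.03 and 2.37 in controls, 18.24 and 17.95 on water and 9.49 and 12.91 on serine. Both lay between the other groups as well, whereas Hamp2 and Ppp1r3g overlapped with water. Hamp2, a hepcidin gene with a close relative, was at 16.97 and 22.94 in controls, 133.3 and 105.1 on water and 114.2 and 166.8 on serine, and Ppp1r3g, another glycogen-targeting gene, at 0.69 and 0.72 in controls, 15.63 and 11.42 on water and 12.38 and 6.25 on serine.

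Markers of other liver cells were read as whole lists, because in bulk tissue fewer cells of a type and less RNA per cell cannot be told apart. The 10 hepatocyte markers were all present and summed to 55934.43 and 66140.53 FPKM on water and 62118.52 and 59391.29 on serine. Of 10 tested stellate cell and matrix markers, 6 were higher on serine with no overlap and 0 lower, beside 26.9% and 10.9% of all genes. After median-of-ratios scaling 5 were higher, beside 17.3% of all genes. All 10 log2 differences were positive, as were 7110 of those of all 11134 genes. The 16 markers of the stellate cell and matrix list summed to 140.33 and 166.23 FPKM on water and 205.69 and 170.37 on serine. Lrat, which stores vitamin A, was at 1.02 and 0.99 on water and 2.31 and 2.20 on serine, and Reln at 6.74 and 7.97 on water and 12.70 and 11.58 on serine. Kupffer cell markers summed to 178.21 and 147.09 on water and 176.31 and 181.25 on serine, and endothelial markers to 162.26 and 174.45 on water and 170.34 and 188.59 on serine. Of 13 tested Kupffer cell markers, 4 were higher with no overlap and 0 lower (2 and 1 after scaling), and 11 differences were positive. Of 14 tested endothelial markers, 7 were higher and 1 lower (3 and 3 after scaling), and 11 differences were positive. The part of stellate cell RNA in the other differences was not tested.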

How the data were processed

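FPKM values per gene were deposited by the authors for 6 liver libraries. Per the submitters' processing notes, bcl2fastq and HISAT2 2.0.5 were used with GRCm39; the tool that gave FPKM, the annotation release and the strand setting are not stated. Groups came from the labels. Annotated genes with a mean of at least 1 FPKM over the 6 libraries (11134 of 55414) were tested, and 295 unannotated rows were not. Group means of log2(FPKM + 0.5) in the 3 groups were modelled in limma 3.58.1 (R 4.3.3; eBayes with a variance trend; 3 residual and 3.46 prior degrees of freedom), with two-sided tests and Benjamini-Hochberg adjustment over all genes tested at 0.05. A log2 difference on this scale understates the change of low genes; ratios are of mean FPKM. SE is the moderated standard error. The fit was run on simulated data with known differences, the same spread for every gene and no shifts between libraries. That check therefore does not cover the unequal spread and the library differences of these data. Non-overlapping means that both serine libraries lay above, or both below, both water libraries. Median-of-ratios scaling divides each library by its median ratio to the geometric mean library over genes above 0 in all 6. No count model was used, since FPKM are not counts. Steps between low values implied the depth.

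The named genes were Gapdh, the 12 with the smallest p per direction and the 6 with the largest difference per direction (non-overlapping, at least 5 FPKM in a group, no clone names or pseudogenes), up to 4 with the smallest p per list, all serine genes, and 5 per direction called in the knockout; some genes under this rule are not reported here. Other list members are named to show overlap or a standard enzyme and were chosen after their values were seen. The members and lists were chosen with earlier results of these data known, so their counts are no independent support. Alternatives were other pseudocounts, filters and scalings, no variance trend, the knockout libraries alone, a replicate block and leaving out each library. Same-numbered knockout libraries deviated from their group means with a correlation of -0.197, so the numbers were not taken as pairs.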

Additional observations from a re-analysis of the deposited data

How the results depend on the processing

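The call of no gene held under every alternative except 2, which leave 1 library in a group that is then assumed to vary like the others: without knockout water replicate 1, 1 gene was called higher (Gm26712), and without knockout serine replicate 1, 3 were (1810049J17Rik, Gm43110 and Gm42959); leaving out each library gave 0 to 3 called higher and 0 called lower. The count at an unadjusted p under 0.05 higher on serine was 319 with median-of-ratios scaling and 302 to 715 without single libraries (302 without knockout water replicate 1). The lower count was 444 with every gene above 0, 141 with a mean of at least 5 FPKM, 361 with median-of-ratios scaling and 176 to 344 without single libraries (344 without knockout serine replicate 1). Non-overlapping genes numbered 1929 higher with median-of-ratios scaling and 2989 to 5127 without single libraries, and lower 2180 with every gene above 0, 668 with a mean of at least 5 FPKM, 1964 with median-of-ratios scaling and 1209 to 2906 without single libraries, where 1 library against 2 separates more easily. With the replicate block, 0 genes were called, with 536 higher and 233 lower before adjustment, so the block changed no call; a crossed pairing, added after seeing the negative correlation of same-numbered libraries, gave 0 calls, 787 higher and 300 lower.

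Of 1785 values recomputed for 120 genes under 15 alternatives, 1754 kept their direction and their side of the threshold. None of the 444 for the 30 genes chosen by p or size reversed. Those genes were chosen with non-overlapping libraries, so only a change of scaling could have reversed them, and the absence of reversals is no support. With median-of-ratios scaling the log2 difference reversed at Cpt1a (-0.0227), Grhpr (-0.0747), Ptdss1 (-0.00819) and Shmt2 (-0.0281). Leaving out single libraries reversed it at Acadm (-0.137 to 0.321), Atf4 (-0.366 to 0.182), Calr (-0.831 to 0.333), Cbs (-0.0677 to 0.28), Fasn (-0.171 to 0.152), Gapdh (-0.128 to 0.343), Gcsh (-0.0142 to 0.479), Gldc (-0.0352 to 0.319), Grhpr (-0.133 to 0.16), Hamp2 (-0.0512 to 0.493), Manf (-1.5 to 0.186), Pck1 (-0.15 to 0.0715), Ptdss1 (-0.149 to 0.302), Ptdss2 (-0.517 to 0.138), Scd1 (-1.39 to 1.85), Sds (-0.377 to 0.63), Serinc1 (-0.0779 to 0.0060), Serinc2 (-0.113 to 0.478), Shmt2 (-0.00293 to 0.122) and Sptlc2 (-0.217 to 0.112), given as the lowest and highest values. With 2 pools a group the median SE was 0.209. In the main fit no difference passed adjustment, including large ones at genes with a wide spread, such as -2.84 at Derl3 (its own SE 0.55, limma adjusted p = 0.639). The cause of the shifts between alternatives was not tested.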

Other observations

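Interferon-stimulated genes, which immune signalling induces, had 13 of 29 tested members higher on serine with no overlap and 3 lower. These were 44.8% and 10.3%, beside 26.9% and 10.9% of all genes. After median-of-ratios scaling 11 members were higher and 5 lower, beside 17.3% and 17.6% of all genes. The list's median log2 difference was 0.18. That median was 0.33 without water replicate 2, 0.42 over members with a mean of at least 5 FPKM and 0.09 after median-of-ratios scaling. Isg15, a ubiquitin-like modifier, was at 4.11 and 2.21 FPKM on water, 5.62 and 6.01 on serine and 16.72 and 14.10 in controls. Irgm1, an inducible GTPase, was at 9 and 11.15 on water, 13.53 in both serine libraries and 21.92 and 22.65 in controls. Ifit3 stood the other way, at 1.91 and 2.03 on water and 1.48 and 1.52 on serine. Limma gave 5 members an unadjusted p under 0.05, all higher, where 5.19% of all genes were higher at that p.

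Of 23 tested genes of glucose production, 5 (21.7%) had both serine libraries above both water libraries and 4 (17.4%) had them below, beside 26.9% and 10.9% of all genes, and the counts were 4 and 5 after median-of-ratios scaling. Igfbp1, a fasting-induced binding protein of insulin-like growth factors, was at 1308 and 635.2 FPKM on water, 478.5 and 554.0 on serine and 242.3 and 215.5 in controls, while Pck1, the fasting-induced carboxykinase, overlapped at 3554 and 3048 on water and 3047 and 3367 on serine. Fbp1, fructose bisphosphatase, was at 746.2 and 712.4 on water and at 848.5 and 1111 on serine. Among 17 tested transporters of neutral amino acids, 4 were higher and 4 lower in this sense (23.5% each), and 2 and 4 after scaling, where 17.3% and 17.6% of all genes were. Slc38a2, known to be induced by amino acid shortage, was at 33.67 and 30.51 on water and 27.82 and 16.20 on serine, and Slc6a9, a glycine carrier, at 18.40 and 16.06 on water and 15.06 and 6.86 on serine. In sphingolipid synthesis Sgms2, sphingomyelin synthase, was at 9.58 and 9.38 on water and 15.57 and 15.16 on serine, above every other library. The clock repressor Bhlhe40 was at 13.91 and 17.91 on water and 24.67 and 23.32 on serine, also above the controls at 14.52 and 14.81. Socs2, a target of growth hormone, was at 2.07 and 2.60 on water and 1.14 and 0.33 on serine. Aldh4a1, of proline breakdown, was at 70.02 and 70.53 on water and 93.09 and 93.18 on serine. None of these genes passed adjustment.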
